A study of Mus musculus with 24 samples.

Results

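Glutamate and GABA are the main fast excitatory and inhibitory transmitters of the brain, and their receptors were followed here in 24 mouse brain tumours. The genes were chosen by symbol: AMPA (Gria), NMDA (Grin), kainate (Grik) and metabotropic glutamate (Grm) receptor genes, and the subunit genes of GABA-A, GABA-A rho and GABA-B receptors. The rule named 44 of the 49315 genes in the count tables, and all 44 were found: 4 AMPA, 7 NMDA, 5 kainate, 8 metabotropic, 15 GABA-A, 3 rho and 2 GABA-B genes. Counts were high enough to test 40 of them. Gabra6, Gabrr1, Gabrr3 and Grm6 did not pass the filter on low counts.

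AMPA receptors carry most fast excitation, and NMDA receptors admit calcium once glycine and glutamate are bound and the membrane is depolarised. Kainate receptors modulate release and excitability, and metabotropic receptors act through G proteins. GABA-A receptors are chloride channels of mixed subunits, and GABA-B receptors are obligate pairs of Gabbr1 and Gabbr2 products that act through G proteins. In brain tissue most of these genes mark neurons, while Grin2c and Grm3 are also known from astrocytes. Glioma cells are known to form glutamatergic contacts with neurons and to respond to both transmitters.

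Each tumour grew in the right hemisphere from 200000 implanted CT-vIII cells, which are CT-2A mouse glioma cells carrying transduced mouse EGFR variant III and firefly luciferase. All 24 mice were implanted with the same line, so no group lacks implanted cells. How much tumour each tissue sample held was not measured. From day 6 to day 9 an osmotic pump infused each brain at 0.5 µl per h, 72 h in all. They held D2C7-IT (0.2 µg, an immunotoxin against EGFR and its variant) with αCD40, D2C7-IT alone, αCD40 alone (an antibody that stimulates the immune receptor CD40), or vehicle. Vehicle was 2% MSA-PBS with 100 µg of a rat IgG2a antibody. The labels give the αCD40 dose as 10 to 300 µg without saying which tumour had which. Tumours were taken 3 days after the pumps came out (day 3) or at once (day 0), with 3 tumours in each of the 8 groups.

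The data are counts of polyadenylated RNA from whole tissue, 24697576 to 48119840 per tumour. Levels are CPM, the share of a library's counts on a scale of 1000000, with library sizes scaled by TMM. Genes are compared with each other only as RPKM, which is CPM per kilobase of exon. Because the tissue was not sorted, fewer cells of a type and less RNA per cell cannot be told apart.

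Before any comparison, 3 day 3 libraries stood apart: vehicle replicates 2 and 3 and αCD40 replicate 1. They held 283 to 343 CPM of Egfr, the gene whose variant the implanted line carries, against 13.1 to 50.8 CPM in the other 21. The proliferation gene Mki67 held 231 to 339 CPM in them, against 3.35 to 35.8 CPM in the other 21. Their summed neuron markers (10 genes) were 1850 to 3240 CPM, against 5970 to 9020 CPM in the other 21, and their summed cell cycle genes (8) were 1190 to 1530 against 44.9 to 192 CPM. Neuron and astrocyte markers were present in every library, with none at 0. In the 3 libraries the neuron genes Snap25 and Rbfox3 still held 406 to 839 and 95 to 158 CPM. How much brain tissue each sample held was not measured. The part of these shifts in the results below was not tested. Many day 3 results are therefore given by tumour, and the others as means or log2 differences.

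The AMPA genes show how close the members of a class can be. In the pore-lining segment of each subunit lies a glutamine codon called the Q/R site, and in Gria2 transcripts RNA editing changes it so that arginine is read, which makes the channel nearly impermeable to calcium. The 27 coding bases around that codon are shown because they separate the 4 genes by only a few letters. They come from the longest coding GENCODE M21 transcript of each gene (GRCm38), with the Q/R codon in capitals.
Gria1: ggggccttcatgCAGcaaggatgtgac
Gria2: ggtgcctttatgCAGcaaggatgcgat
Gria3: ggtgcttttatgCAGcaaggatgtgat
Gria4: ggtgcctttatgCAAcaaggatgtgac
The stretches lie in coding exons at chr11:57243082-57243108 (+), chr3:80706899-80706925 (-), chrX:41610253-41610279 (+) and chr9:4464125-4464151 (-), in the order shown. The capitals are codon 600 of Gria1, 607 of Gria2, 612 of Gria3 and 608 of Gria4. Between pairs of genes, 23 to 25 of the 27 bases were identical. The counts are per gene and carry no information on editing.

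A promoter table from RefSeq (GRCm38.p6, 250 bases before to 50 bases after a start) held 31 of the 44 genes, in 38 entries. The GC box GGGCGG, read on both strands, was in 19 of the 38 member entries and in 35.7% of all 32851 entries. The TATA box TATAAA was in 4 of the 38 and in 13.6% of all, and the cyclic AMP response element TGACGTCA was in 0 of the 38 and in 1.79% of all. Printed below are 3 neighbours on the X chromosome, of which Gabre and Gabrq varied most between tumours and Gabra3 did not, and Grin2c, the gene with the widest parting at day 0 among well-expressed members. Capitals mark the GC box on either strand.
Gabre: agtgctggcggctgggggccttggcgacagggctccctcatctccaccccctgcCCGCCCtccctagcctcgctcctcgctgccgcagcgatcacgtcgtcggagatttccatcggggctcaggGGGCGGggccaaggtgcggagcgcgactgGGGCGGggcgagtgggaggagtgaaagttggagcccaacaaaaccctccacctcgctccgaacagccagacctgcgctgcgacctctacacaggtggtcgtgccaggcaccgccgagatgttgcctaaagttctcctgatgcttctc
Gabrq: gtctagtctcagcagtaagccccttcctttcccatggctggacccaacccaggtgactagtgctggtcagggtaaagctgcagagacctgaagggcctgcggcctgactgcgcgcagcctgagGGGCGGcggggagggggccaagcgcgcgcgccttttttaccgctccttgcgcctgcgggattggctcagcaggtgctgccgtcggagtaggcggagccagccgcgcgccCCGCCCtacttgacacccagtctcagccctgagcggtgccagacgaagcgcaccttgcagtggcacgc
Gabra3: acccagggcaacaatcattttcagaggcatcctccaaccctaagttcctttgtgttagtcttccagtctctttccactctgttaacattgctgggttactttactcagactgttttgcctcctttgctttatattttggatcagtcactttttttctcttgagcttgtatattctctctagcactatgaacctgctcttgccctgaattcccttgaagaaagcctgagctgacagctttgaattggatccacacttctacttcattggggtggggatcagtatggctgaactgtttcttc
Grin2c: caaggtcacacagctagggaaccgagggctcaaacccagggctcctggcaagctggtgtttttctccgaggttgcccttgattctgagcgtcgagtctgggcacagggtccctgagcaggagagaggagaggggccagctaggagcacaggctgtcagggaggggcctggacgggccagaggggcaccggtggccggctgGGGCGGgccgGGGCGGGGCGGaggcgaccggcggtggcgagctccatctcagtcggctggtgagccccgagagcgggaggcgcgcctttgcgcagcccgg
They lie at chrX:72274672-72274971 (-), chrX:72824928-72825227 (+), chrX:72656870-72657169 (-) and chr11:115267194-115267493 (-). Gabre has 3 GC boxes and 24 CG pairs, and Gabrq has 2 and 23. The Gabra3 entry, 1 of 2 overlapping starts, has 0 of each. Grin2c has 3 GC boxes, which overlap in part, and 22 CG pairs, against a median of 12 CG pairs over member entries and 7 over all.

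Per length, the highest level over the 24 tumours was that of Gabbr1, the ligand-binding subunit of the GABA-B receptor, at 94.2 ± 24.8 RPKM (SD over all 24 tumours, as for the RPKM values that follow). Its partner Gabbr2 averaged 40.6 ± 17 RPKM. Among AMPA genes Gria1 led with 67 ± 22 RPKM, before Gria2 with 37.1 ± 12.1 and Gria3 with 18.2 ± 7.3. Gria1 held 39.9 to 56.3% of AMPA RPKM in the 21 libraries and 38.2 to 50.1% in the 3 of highest Egfr.

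Among NMDA genes Grin1, the obligatory glycine-binding subunit, averaged 44.5 ± 14.4 RPKM. The glutamate-binding subunits Grin2b and Grin2c followed at 16.7 ± 6.31 and 10.6 ± 4.77 RPKM. Among kainate genes the high-affinity subunit Grik5 averaged 53 ± 9.35 RPKM, against 12.2 ± 3.85 for Grik3 and 4.74 ± 1.64 for Grik4. Among metabotropic genes Grm5, which couples to phospholipase C, averaged 17.5 ± 6.84 RPKM, before Grm3 (13 ± 4.35) and Grm7 (8.94 ± 2.76), both of which lower cyclic AMP.

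Among GABA-A genes Gabra3, an alpha subunit, averaged 25.5 ± 9.62 RPKM. Members under 0.5 CPM on average were Gabra6 (0.091 CPM), a subunit of cerebellar granule cells, the rho genes Gabrr1 (0.152) and Gabrr3 (0.0515), best known from retina, and Grm6 (0.0624), known from retinal bipolar cells. Of the exon bases of Grm6, 11.05% overlap an antisense gene, and the libraries do not mark strand.

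**Figure D1:**
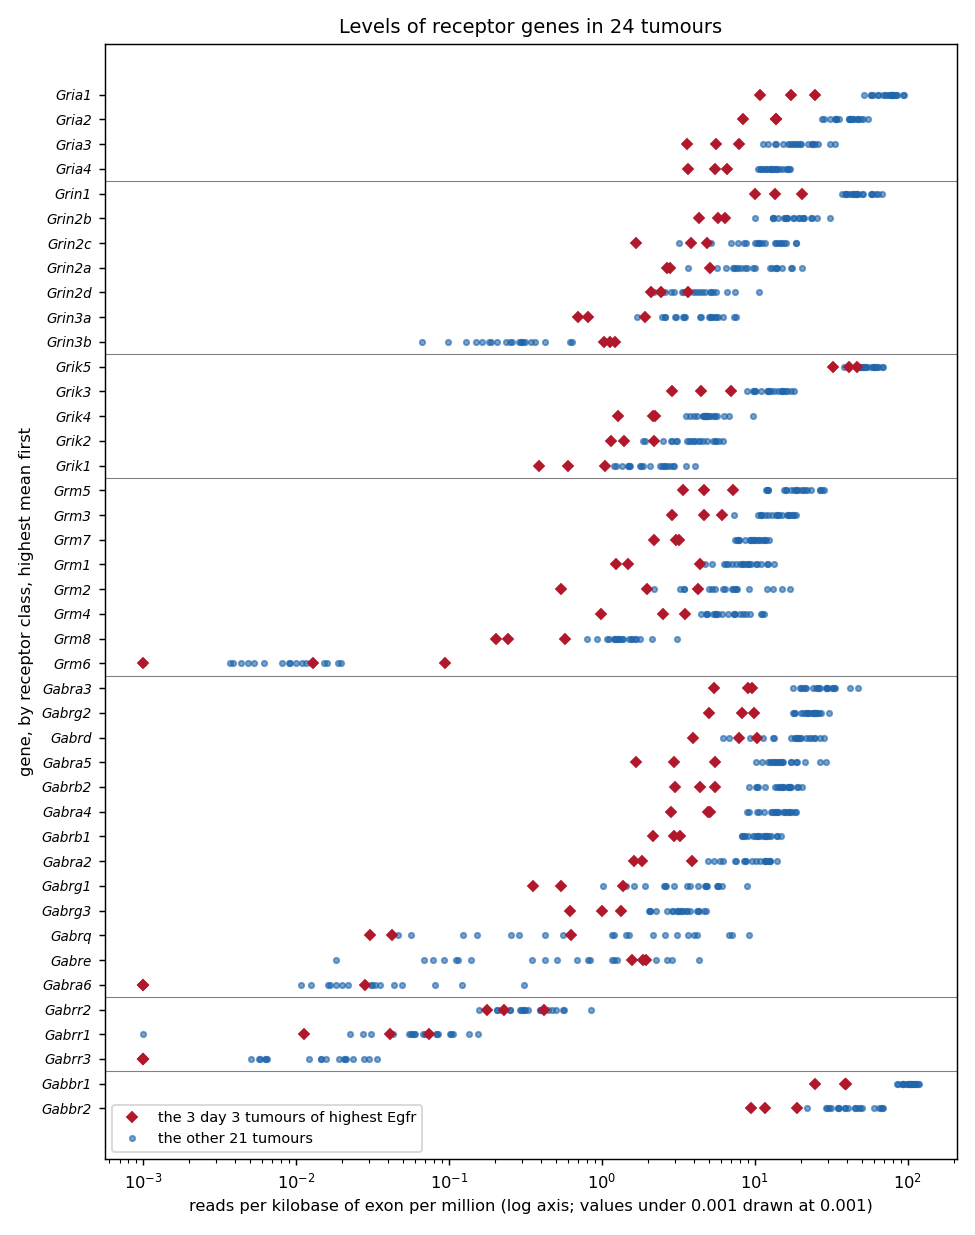
RPKM of receptor genes (log axis) in each tumour, grouped by receptor class with the highest mean first. Diamonds are the 3 day 3 tumours of highest Egfr, which lie left of the other 21 for most genes but right of them for Grin3b (3.43 to 4.03 against 0.22 to 2.11 CPM); circles are the other 21.

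At day 0 the treatments are set against vehicle taken on the same day, which asks how these genes differed with what the pump held. Vehicle was infused for the same 72 h, so an effect of the infusion itself is not covered. No receptor gene passed edgeR's quasi-likelihood test in any of the 3 comparisons. After the combination 0 of 40 members were called, where 0% of the 22280 genes tested were called, with 0 members and 675 genes at an unadjusted p under 0.05 and 0 members called by DESeq2. D2C7-IT gave 0 of 40, against 0.0808% of all genes, with 1 member and 1007 genes at an unadjusted p under 0.05 and 0 members by DESeq2. αCD40 gave 0 of 40, against 0% of all genes, with 0 members and 303 genes at an unadjusted p under 0.05 and 0 members by DESeq2. The shares of all genes are those of edgeR. None is given for DESeq2 here, so its counts have no background beside them. The median log2 difference over the 40 members was 0.0608, -0.143 and -0.0212 in that order, against 0.0218, -0.00874 and 0.00262 over all genes.

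Grin2c, an NMDA subunit of slow, weakly blocked channels, parted most clearly among well-expressed members. Its level was 35.2, 42.9 and 39.3 CPM in D2C7-IT tumours, against 93.9, 78 and 75.3 CPM in vehicle tumours. Every D2C7-IT tumour was below every vehicle tumour. The log2 difference was -1.07 ± 0.62 (SE), with an adjusted p of 1 when all 24 libraries set the spread. With only these 6 libraries in the fit it was -1.05 ± 0.13 with an edgeR adjusted p of 0.0349, where 0.443% of 19627 genes were called, Grin2c being the only member.

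The combination tumours held 74.9, 55.9 and 50.5 CPM of Grin2c and also lay below all vehicle tumours, with a log2 difference of -0.45 ± 0.61 (edgeR adjusted p = 1). αCD40 tumours, at 93.2, 59 and 53.4 CPM, overlapped with vehicle. Some genes of astrocytes also parted and are named here after their values were seen. Of the 9 astrocyte markers, 3 had all D2C7-IT tumours above vehicle, against 11% of all genes, and 1 below, against 6.6%. Of the 17 genes of transmitter handling, 1 lay above and 2 below. edgeR called 0 of the 9 astrocyte markers (smallest adjusted p 0.861) and 0 of the 17 genes of transmitter handling. The glutamate transporter Slc1a2 held 1210, 1490 and 1760 CPM in D2C7-IT tumours against 2220, 1810 and 2660 CPM in vehicle tumours. Glutamine synthetase (Glul) held 1090, 956 and 1220 against 1500, 1550 and 1810 CPM. The filament gene Gfap went the other way, at 2240, 1320 and 1740 against 1130, 889 and 425 CPM. The summed astrocyte list (9 genes) overlapped, at 4350 to 5400 CPM after D2C7-IT and 4630 to 5070 CPM in vehicle. Their part in the Grin2c values was not tested.

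Among kainate genes, Grik5 lay below vehicle in every tumour after D2C7-IT and after αCD40. It held 251, 281 and 258 CPM in D2C7-IT tumours and 310, 251 and 211 CPM in αCD40 tumours, against 322, 352 and 313 CPM in vehicle tumours. Neither treated group overlapped with vehicle. The log2 difference was -0.32 ± 0.22 for D2C7-IT and -0.35 ± 0.22 for αCD40, each with an edgeR adjusted p of 1. Combination tumours overlapped, at 356, 263 and 197 CPM (log2 -0.27 ± 0.22, edgeR adjusted p = 1).

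After D2C7-IT, 4 of 40 members had all 3 tumours below vehicle, against 6.6% of all genes, and 1 had all 3 above, against 11%. Besides Grin2c and Grik5, the lower ones were Grik4 (mean 25.9 against 33.4 CPM) and Gabbr1 (720 against 847 CPM). Grin3b, a glycine-binding NMDA subunit, was the higher one, with 1.41, 1.21 and 0.969 CPM in D2C7-IT tumours and 0.426, 0.624 and 0.22 CPM in vehicle tumours. Its log2 difference of 1.47 ± 0.64 had an edgeR adjusted p of 1. Of its exon bases, 32.13% overlap Tmem259 on the other strand, so part of its reads cannot be assigned.

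After the combination 3 of 40 members lay below vehicle in every tumour, against 4.02% of all genes, and 0 lay above, against 5.45%. They were Grin2c, Grm3 and Gabrd. Gabrd, the subunit of extrasynaptic GABA-A receptors, held 52.6, 52.9 and 26.9 CPM after the combination, against 65.3, 76.4 and 61.8 CPM in vehicle, a log2 difference of -0.62 ± 0.58 (edgeR adjusted p = 1). Grin2d, the NMDA gene of smallest p there, held 23.7, 19.8 and 70.9 against 16.6, 34.4 and 22.7 CPM, so that replicate 3 alone was high (log2 0.64 ± 0.51, edgeR adjusted p = 1; -0.18 without that tumour).

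After αCD40, Grik5 and Gabrg3 were the 2 of 40 members below vehicle in every tumour, against 3.47% of all genes, and 0 were above, against 3.99%. Gabrg3, a GABA-A gamma subunit, averaged 37.1 against 44.3 CPM. Gabrr2, the only rho gene tested, held 0.827, 1.79 and 0.613 CPM after αCD40 and 0.331, 0.841 and 0.529 CPM in vehicle, and the groups overlapped (log2 0.91 ± 0.49, edgeR adjusted p = 1). For Grin3b the difference after αCD40 was 0.68 ± 0.64 (edgeR adjusted p = 1).

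**Figure D2:**
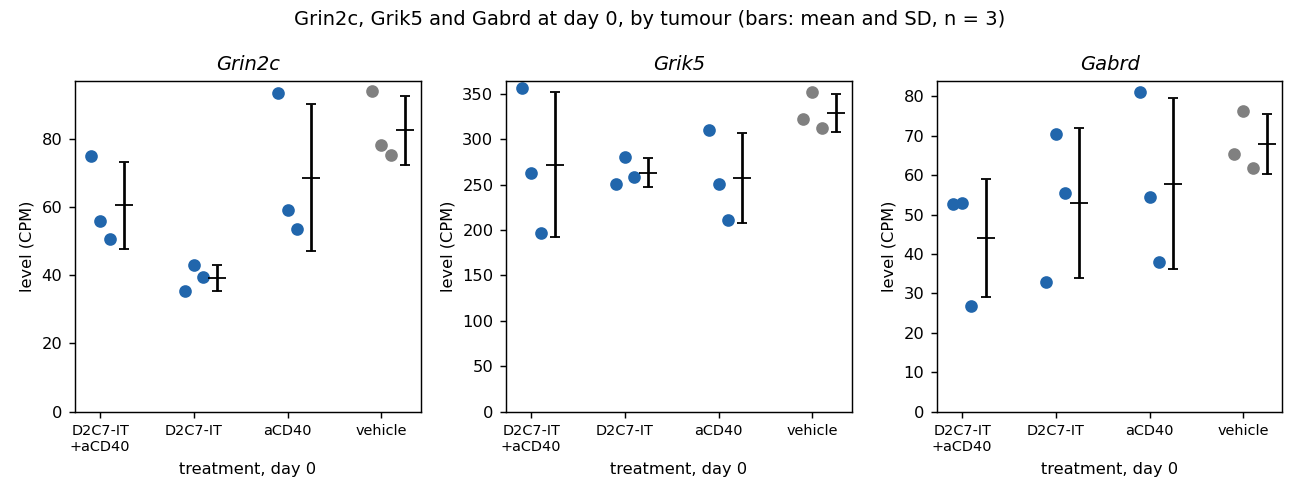
CPM of Grin2c, Grik5 and Gabrd in each day 0 tumour, from left the combination, D2C7-IT, αCD40 and vehicle, with mean and SD (n = 3). The 3 D2C7-IT tumours sit at 35.2 to 42.9 CPM of Grin2c, below all vehicle tumours at 75.3 to 93.9 CPM.

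At day 3 the treatments are set against vehicle 3 days after the pumps came out. Again 0 of 40 members were called by edgeR after the combination, against 0.0404% of all genes, after D2C7-IT, against 0%, and after αCD40, against 0%. Members at an unadjusted p under 0.05 numbered 1, 5 and 0 in that order, beside 5352, 6287 and 425 of the 22280 genes. DESeq2 called 0 members in each, again without its share of all genes beside it. The median log2 difference over the members was 0.478, 0.632 and 0.26, against 0.014, 0.0231 and 0.0217 over all genes. The vehicle group at day 3 held 1 tumour with neuron markers at 7700 CPM and 2 of the libraries of highest Egfr, at 3240 and 2540 CPM.

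Gabbr2, the G-protein-coupling subunit of the GABA-B receptor, had the smallest p in both D2C7-IT comparisons. It held 301, 317 and 259 CPM after the combination and 462, 456 and 148 CPM after D2C7-IT, against 236, 126 and 63.7 CPM in vehicle. The combination tumours lay above all vehicle tumours, and the D2C7-IT tumours overlapped with them through replicate 3. The log2 difference was 1.04 ± 0.49 for the combination (edgeR adjusted p = 0.204) and 1.32 ± 0.50 for D2C7-IT (edgeR adjusted p = 0.104). Without the 3 libraries of highest Egfr, which leaves 1 vehicle tumour, it was 0.34 and 0.60.

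Grik4, a high-affinity kainate subunit, held 31, 32.7 and 29.5 CPM after the combination and 57.9, 28.3 and 24 CPM after D2C7-IT, against 27.5, 12.9 and 13.3 CPM in vehicle. The log2 difference was 0.79 ± 0.40 for the combination (edgeR adjusted p = 0.226) and 1.04 ± 0.40 for D2C7-IT (edgeR adjusted p = 0.109). Without the 3 libraries it was 0.20 and 0.43.

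Grin1 held 560, 657 and 382 CPM after D2C7-IT, against 458, 199 and 132 CPM in vehicle, and replicate 3 kept the groups overlapping. Its log2 difference was 1.02 ± 0.43 (edgeR adjusted p = 0.136), and 0.23 without the 3 libraries. Gabrb1, a GABA-A beta subunit, held 205, 114 and 118 CPM after the combination against 152, 41 and 44.6 CPM in vehicle, a log2 difference of 0.88 ± 0.48 (edgeR adjusted p = 0.271) that turned to -0.03 without the 3 libraries.

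After the combination, 4 of 40 members lay above vehicle in every tumour, against 8.06% of all genes, and 0 lay below, against 7.45%. The 4 were Gabbr2, Grik4, Gabra5 and Grm2. Gabra5 held 44, 41.3 and 44.8 CPM, against 39.5, 16.3 and 8.76 CPM in vehicle (means 43.3 and 21.5). Grm2 held 24.7, 31.1 and 34.6 CPM, against 20.6, 20.7 and 2.65 CPM in vehicle (means 30.1 and 14.6). After D2C7-IT 0 lay above, against 7.43%, and 1 below, against 5.78%. That gene was Gabre, at 0.657, 0.37 and 5.52 CPM in D2C7-IT tumours and 5.91, 8.75 and 9.17 CPM in vehicle tumours.

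After αCD40 0 members lay above, against 1.58% of all genes, and 0 below, against 1.13%. The 3 members of smallest p were Grin3b, Gabrb1 and Grm8, a metabotropic receptor of axon terminals, with log2 differences of -0.74 ± 0.60, 0.52 ± 0.48 and 0.51 ± 0.60 and an edgeR adjusted p of 0.998 each. αCD40 replicate 1 held 3.72 CPM of Grin3b, against 0.829 and 0.495 CPM in replicates 2 and 3. Without replicate 1, Grin3b was called lower than in vehicle (log2 -2.07 ± 0.56, edgeR adjusted p = 0.0445), where 5.98% of genes were called. Without all 3 libraries, which leaves 1 vehicle tumour, the Grin3b difference was -0.50 on the log2 scale.

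The day 3 calls turned on vehicle replicate 1. Without it, the vehicle group held only the 2 libraries of highest Egfr. Then 22 of 42 members were called for D2C7-IT (21 higher, and Grin3b lower), where 35.7% of genes were called, and 12 of 42 for the combination (all higher), where 30.1% were. Leaving out the 3 libraries leaves 1 vehicle tumour, so a count of calls there says little about the receptor genes. The log2 differences of Gabbr2, Grik4 and Grin1 given above were smaller in that fit. Every comparison with vehicle at day 3 shares its 3 vehicle tumours.

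Day 3 was also set against day 0 within each treatment, which asks how the genes differed after the infusion had ended. edgeR called 0 of 40 members in vehicle, where 0% of genes were called, 0 in αCD40, against 0.0583% (0.0359% higher and 0.0224% lower), 0 in D2C7-IT, against 0.00449%, and 0 in the combination, against 0%. At an unadjusted p under 0.05 there were 10, 2, 0 and 1 members in that order, beside 6720, 2589, 782 and 1039 of the 22280 genes. The share of members was below that of all genes in each of these comparisons. DESeq2 called 1 member in vehicle, Grin3b, where it called 11.1% of all genes. It called 0 members in the others, for which its share of all genes is not given. The median member differed by -0.846, -0.515, -0.077 and -0.283 on the log2 scale, against 0.00971, 0.0514, 0.00631 and -0.0124 over all genes.

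In vehicle, Gria2 held 651, 213 and 214 CPM at day 3, against 671, 687 and 793 CPM at day 0. The day 3 tumours were all lower, replicate 1 only slightly so. Gabbr2 averaged 142 ± 87.2 CPM at day 3 and 331 ± 123 CPM at day 0, a log2 difference of -1.22 ± 0.49 (edgeR adjusted p = 0.125). Grik4 averaged 17.9 ± 8.34 and 33.4 ± 4.65 CPM, a difference of -0.90 ± 0.40 (edgeR adjusted p = 0.143).

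Of the 40, 3 members lay below day 0 in every vehicle tumour (Gria2, Grik4 and Grin2c), against 6.65% of all genes, and 1 above, against 6.49%. Without vehicle replicate 1 at day 3, 27 of 42 members were called, 26 lower and Grin3b higher, where 41.1% of genes were called. Without the 3 libraries of highest Egfr only replicate 1 is left at day 3, so a count of calls says little about the members. In replicate 1 the median member stood at 0.00389 relative to the vehicle day 0 mean, in log2(CPM + 1).

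Of the 40 members, 37 had a negative log2 difference and 3 a positive one, namely Grin3b, Gabre (1.02 ± 1.5, edgeR adjusted p = 0.647) and Grin2d (0.08 ± 0.50, edgeR adjusted p = 0.928). Grin3b held 0.95, 3.43 and 4.03 CPM in vehicle at day 3, against 0.426, 0.624 and 0.22 CPM at day 0. Its log2 difference was 2.70 ± 0.65 with an edgeR adjusted p of 0.108. DESeq2 gave 2.72 ± 0.64 with an adjusted p of 0.0123, where it called 11.1% of all genes. Without the 3 libraries, which leaves 1 vehicle tumour at day 3, the edgeR difference was 1.12. Tmem259, whose exons overlap it, held 132, 126 and 133 CPM at day 3 and 124, 137 and 128 CPM at day 0, and its part in the Grin3b counts was not tested. Over all 24 libraries Grin3b had only 1182 reads.

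In αCD40 tumours Grin2a, an NMDA subunit of mature synapses, held 48.2, 136 and 132 CPM at day 3 and 225, 246 and 251 CPM at day 0. The groups did not overlap, also among the 2 day 3 tumours of low Egfr. The log2 difference was -1.19 ± 0.54 (edgeR adjusted p = 0.424), and -0.84 without the 3 libraries. Gabrb2, a GABA-A beta subunit, held 19.2, 98.1 and 58.1 CPM at day 3 and 122, 103 and 110 CPM at day 0, a difference of -0.93 ± 0.44 (edgeR adjusted p = 0.424).

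Grin3b differed by 1.27 ± 0.62 there (edgeR adjusted p = 0.424) and by -0.07 without replicate 1. In all, 6 of 40 members lay below in every tumour, against 5.81% of all genes, and 0 above, against 5.05%. Among the others were Grin1, Grin2b and Gabbr2.

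In combination tumours Grin2a held 101, 156 and 146 CPM at day 3 and 316, 368 and 65.9 CPM at day 0, and the groups overlapped (log2 -0.89 ± 0.54, edgeR adjusted p = 1). Gabrb2 did not overlap, at 91.9, 66.4 and 64.8 CPM against 130, 120 and 107 CPM (log2 -0.68 ± 0.44, edgeR adjusted p = 1). Grin3b held 0.974, 2.05 and 2.11 CPM at day 3 and 0.326, 0.781 and 0.606 CPM at day 0 (log2 1.58 ± 0.63, edgeR adjusted p = 0.94). None of the 6 combination tumours was among the libraries of highest Egfr. Here 5 members lay below in every tumour, against 6.49% of genes, and 1 above, against 7.07%.

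In D2C7-IT tumours no member parted: 0 lay above day 0 in every tumour, against 4.96% of genes, and 0 below, against 6.36%. Grik4, Gabbr2 and Grik5 had the smallest p, with log2 differences of 0.51 ± 0.39, 0.56 ± 0.49 and 0.21 ± 0.22 and an edgeR adjusted p of 1 each.

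Whether a treatment's effect differed between day 3 and day 0 was tested directly. edgeR called 0 of 40 members for the combination, D2C7-IT and αCD40, and 0 of the 22280 genes. At an unadjusted p under 0.05 there were 0, 4 and 0 members, beside 1793, 3914 and 272 genes; DESeq2 was not run on this contrast. The smallest p for D2C7-IT was that of Grin3b, whose effect differed by -2.87 on the log2 scale (edgeR adjusted p = 0.276). At day 3 it held 1.01, 1.04 and 1.13 CPM in D2C7-IT tumours, against 0.95, 3.43 and 4.03 CPM in vehicle tumours. Vehicle replicates 2 and 3, the higher ones, are among the libraries of highest Egfr, and this contrast was not run without them.

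**Figure D3:**
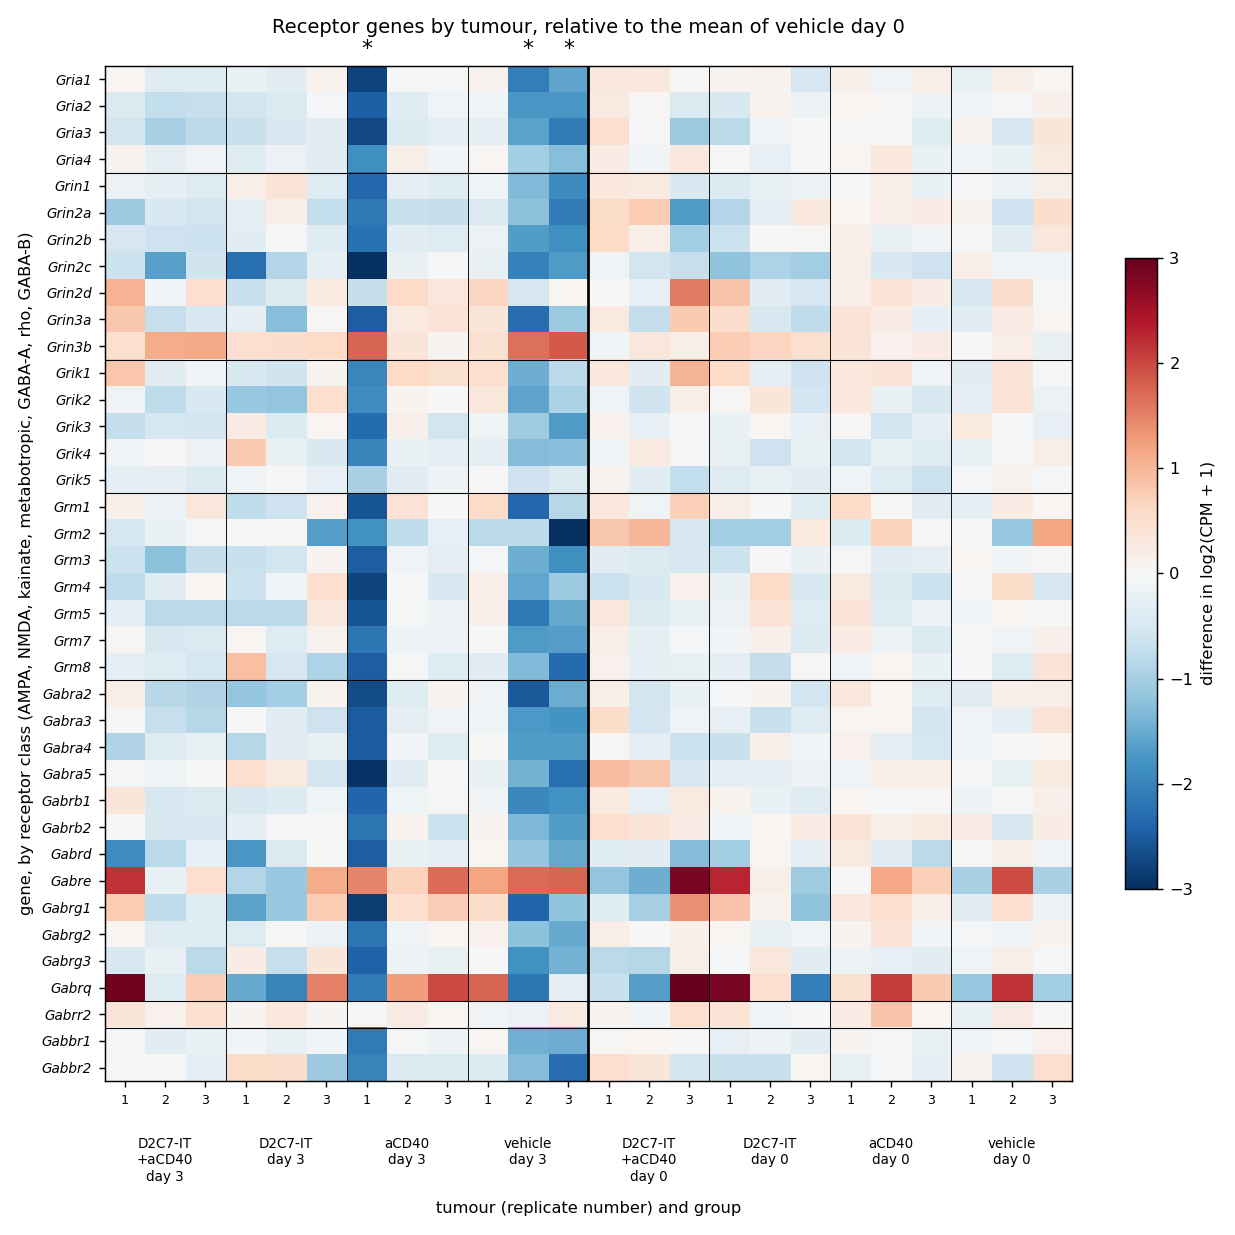
Difference of tested receptor genes in each tumour from the mean of the 3 vehicle day 0 tumours, in log2(CPM + 1), with day 3 groups left of day 0 groups and vehicle last in each. Stars mark the 3 libraries of highest Egfr, where most genes are blue but Grin3b and Gabre are red; Gabrq and Gabre also swing between tumours of the same group.

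In the 3 libraries of highest Egfr both the receptor genes and the neuron markers were low. The median member stood at -2.29 relative to the vehicle day 0 mean in αCD40 day 3 replicate 1, on the log2(CPM + 1) scale. In vehicle day 3 replicates 2 and 3 it stood at -1.47 and -1.53. The median neuron marker stood at -2.2, -1.27 and -1.59 in these libraries, the median astrocyte marker at -0.841, -0.614 and -0.56, and the median of all genes at -0.017, -0.0167 and -0.00299. In vehicle day 3 replicate 1 the median member stood at 0.00389. Over the other 21 libraries the medians of the 2 lists did not always go together: D2C7-IT day 3 replicate 1 had -0.312 for the members and 0.0677 for the neuron list, and replicate 3 had -0.0339 and -0.383.

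Summed over the 44 genes, the receptors held 1410 CPM in αCD40 day 3 replicate 1 and 2330 and 2200 CPM in vehicle day 3 replicates 2 and 3. Divided by the summed neuron list these values gave ratios of 0.762, 0.721 and 0.867. The other 21 libraries gave 0.695 (D2C7-IT day 3 replicate 1) to 0.983 (D2C7-IT day 3 replicate 3), so the 3 libraries lay within their range.

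**Figure D4:**
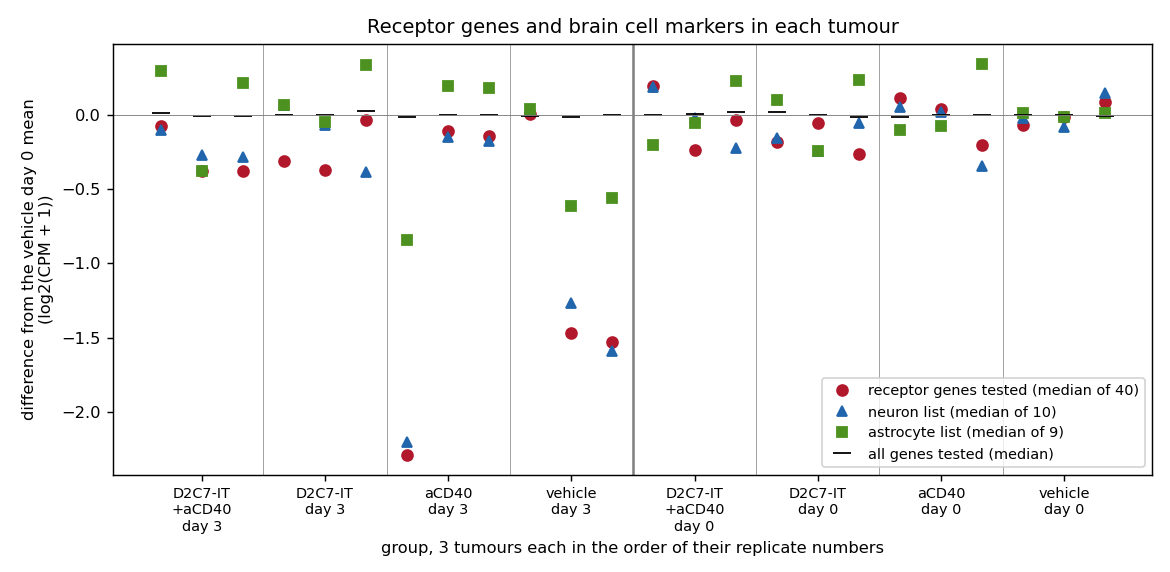
Median over the 40 receptor genes tested (circles), the neuron list (triangles), the astrocyte list (squares) and all genes tested (dashes) in each tumour, as the difference from the vehicle day 0 mean in log2(CPM + 1). In αCD40 day 3 replicate 1 the receptor genes stand at -2.29 and the neuron list at -2.2, while all genes stand at -0.017.

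Set gene by gene, 27 of the 40 tested members were lower in all 3 libraries of highest Egfr than in any of the other 21, 1 was higher, and 12 overlapped. Of all genes tested, 18.9% were lower and 26.1% higher in the same sense. These libraries were picked by their own data, so this is a description. Gria1 held 65.9 to 150 CPM in the 3, against 314 to 570 CPM in the 21. Gabbr1 held 194 to 309 against 665 to 918 CPM.

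Grik5 overlapped, at 167 to 242 against 197 to 356 CPM, and made up 78.8 to 85.1% of kainate RPKM in the 3, against 56.6 to 77.3% in the 21. Its share was thus higher in each of the 3 than in any other tumour. Grin2d overlapped as well (13.9 to 24.5 against 14.5 to 70.9 CPM), as did Gabrr2 (0.373 to 0.874 against 0.331 to 1.79 CPM).

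Gabre and Gabrq encode the epsilon and theta subunits of GABA-A receptors, which are known mainly from hypothalamus and brainstem. The genes lie on either side of Gabra3 on the X chromosome, Gabre from 72255999 to 72274803, Gabra3 from 72432681 to 72656848 and Gabrq from 72825178 to 72842602 (GRCm38). Tumours of the same group differed widely in both. In combination tumours at day 0 Gabrq held 2.28, 0.665 and 48.9 CPM and Gabre 0.326, 0.0867 and 20.6 CPM. In D2C7-IT tumours at day 0 Gabrq held 36.4, 6.38 and 0.25 CPM and Gabre 13.7, 2.41 and 0.438 CPM. In vehicle tumours at day 0 Gabrq held 1.37, 22.6 and 1.54 CPM and Gabre 0.544, 10.7 and 0.529 CPM.

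In each of these groups the tumour with the most Gabrq also had the most Gabre. Over the 21 libraries the highest level was 195 times the lowest for Gabrq and 237 times for Gabre, but 2.66 times for Gabra3 between them. The ratio of Gabre to Gabrq RPKM lay between 0.147 and 1.98 in the 21 libraries. In the 3 of highest Egfr it was 36.9, 60.5 and 3.1. There Gabre held 7.41, 8.75 and 9.17 CPM while Gabrq held 0.227, 0.163 and 3.34 CPM (αCD40 replicate 1, then vehicle replicates 2 and 3).

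**Figure D5:**
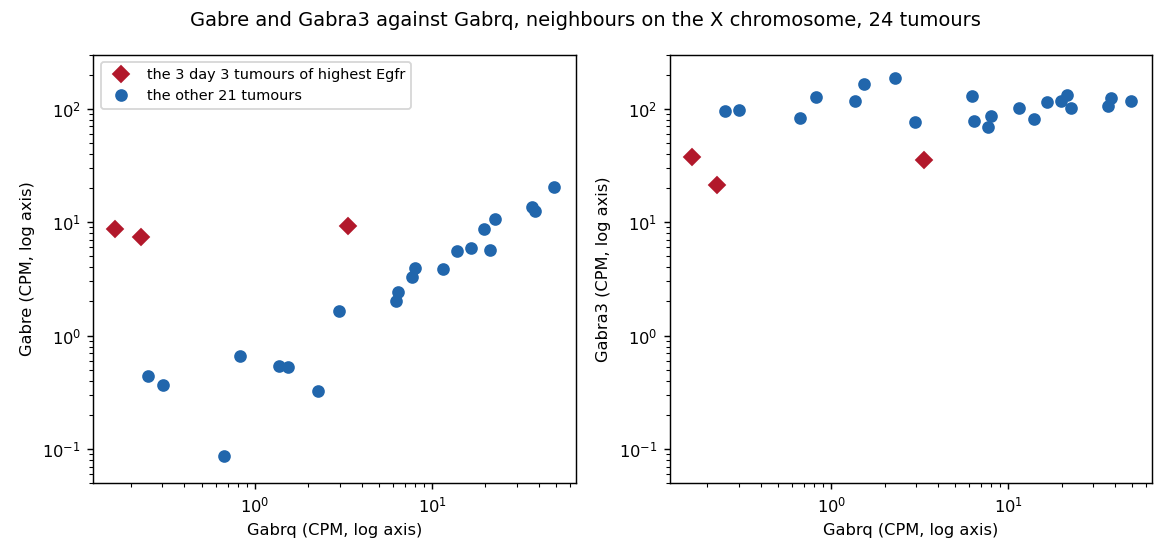
Gabre (left) and Gabra3 (right) against Gabrq in 24 tumours, in CPM on log axes. Diamonds are the 3 day 3 tumours of highest Egfr, with 7.41 to 9.17 CPM of Gabre at 0.163 to 3.34 CPM of Gabrq; in the other 21 (circles) Gabre climbs with Gabrq while Gabra3 stays between 69.4 and 185 CPM.

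Other receptor genes differed beside Gabrq. Combination day 0 replicate 3, the tumour with the most Gabrq, also had the most Gabrg1 (69.9 CPM), Grin2d (70.9) and Grik1 (27.3) of the 21, and its Grin3a, at 89.9 CPM, was second to the 92.4 CPM of combination day 3 replicate 1. D2C7-IT day 0 replicate 3, with the least Gabrq of the 21, held 10.9 CPM of Gabrg1, 16.3 of Grin2d, 8.03 of Grik1 and 30.4 of Grin3a. Grin2a went the other way, at 65.9 CPM in combination day 0 replicate 3 and 269 CPM in D2C7-IT day 0 replicate 3. So did the summed excitatory neuron markers (6 genes), at 989 and 4440 CPM in the same tumours, while the inhibitory neuron markers (8) summed to 1730 and 818 CPM. The excitatory markers did not all go with their sum. Camk2a (797 and 2860 CPM) and Slc17a7 (39.7 and 1290 CPM) did, but Slc17a6 was the reverse, at 134 and 24.2 CPM. The rest of that list is not given by tumour here. The striatal neuron markers (7) summed to 696 and 603 CPM there, and ran from 196 to 2270 CPM over the 21. The part of the neuron types sampled in these values was not tested.

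Genes that handle the transmitters or hold the receptors in place were counted beside them. For 34 accessory and scaffold genes, such as the AMPA partners of the Cacng family and the postsynaptic scaffolds Dlg4 and Shank1, edgeR called 0 in each of the 10 comparisons. It also called 0 of 17 genes of transmitter handling, 0 of 7 tested receptors outside the rule (glycine and delta receptors) and 0 of 7 calcium and plasticity partners. In vehicle at day 3 against day 0 the numbers at an unadjusted p under 0.05 were 10, 4, 0 and 4, beside 6720 of the 22280 genes. The median log2 differences there were -0.772, -0.533, -0.581 and -0.926, beside -0.846 for the receptors and -0.805 for the neuron list.

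Homer3, a postsynaptic scaffold that binds group I metabotropic receptors, was named after its values were seen. It held 49.2 to 56.3 CPM in the 3 libraries of highest Egfr, against 7.54 to 27 CPM in the 21, while its relatives Homer1 and Homer2 held 51.6 to 95.2 against 52.4 to 487 CPM and 9.35 to 16.7 against 29.6 to 119 CPM. Many genes parted in this way: of all genes tested, 26.1% were higher in all 3 than in any of the 21, and 18.9% lower. The GABA-B partner Kctd12 overlapped, at 43.7 to 55.1 against 37.1 to 68.2 CPM.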

How the data were processed

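The deposited tables hold raw counts per Ensembl gene, as whole numbers, which the authors made with STAR 2.5.2b and featureCounts of Subread 1.5.2 on GRCm38 after Trimmomatic 0.36, per the submitters' processing notes. Annotation release: not given in the sources used here. Nor is the strand setting, and the kit does not mark strand. Of 36 columns, 12 repeat another and 0 of these differ. Symbols came from GENCODE M21.

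From the counts, edgeR 4.0.16 (R 4.3.3) filtered genes by filterByExpr, leaving 22280, scaled libraries by TMM and fitted 1 mean per group over all 24 libraries (robust quasi-likelihood F test with 16 residual degrees of freedom; the common biological coefficient of variation was 0.412). Calls required an adjusted p under 0.05 (Benjamini-Hochberg, across every gene in the fit). Fold changes are log2 ± SE. RPKM divides CPM by the union of GENCODE exons. Replicates are separate tumours by the labels. Libraries held 24697576 to 48119840 counts, so members near 1 CPM rest on few reads.

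Named members are the 3 of smallest p per comparison, the 3 of highest RPKM per class and those under 0.5 CPM on average; others are named after their values were seen. Some members enter the counts and medians but are not reported by name here. The members and lists were chosen with earlier results of these data known. Alternatives were DESeq2 1.42.0, RLE size factors, no filter on low counts, only the groups compared, a replicate block and leaving out each tumour. In 0 of the 10 comparisons did every pair of same-numbered replicates correlate above 0.1 in its deviations from the group means (range -0.913 to 0.463), so the numbers were not taken as pairs. The fit was also run on simulated data with large planted changes and the same spread in every library. That run does not cover smaller differences or libraries that stand apart.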

Additional observations from a re-analysis of the deposited data

How the results depend on the processing

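The number of receptor genes called was 0 in each of the 10 comparisons, and stayed at 0 under RLE size factors, without the filter on low counts and with a replicate block, whose value was 0 in each; the replicate numbers were not taken as pairs. DESeq2 called 1 member for vehicle day 3 against day 0 and 0 elsewhere. With only the groups compared, D2C7-IT against vehicle at day 0 gave 1, and the others 0. Leaving out single tumours gave 0 to 27 for vehicle day 3 against day 0, 0 to 22 for D2C7-IT and 0 to 12 for the combination against vehicle at day 3, 0 to 1 for αCD40 against vehicle at day 3, and 0 in the other 6. The high values came without vehicle day 3 replicate 1 (27, 22 and 12) and without αCD40 day 3 replicate 1 (1). Leaving out the 3 libraries of highest Egfr was chosen after the data were seen and touches 5 comparisons. It leaves 1 vehicle tumour at day 3, assumed to vary like the other groups, so only log2 differences are given from it.

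Directions turned in 4 cases: Gabrb1 for the combination at day 3 (-0.0341 without the 3 libraries), Grin2d for the combination at day 0 (-0.176 without replicate 3; -0.176 to 0.959 over single tumours left out), and Grin3b for αCD40 day 3 against day 0 (-0.0687 without replicate 1, -0.0679 without the 3 libraries; -0.0687 to 1.705 over single tumours left out). The cause was not tested. For the named members, 329 other values kept their direction and call, and 12 were past the threshold under an alternative only. Over all libraries Grin3b had 1182 reads and Gabrr2 679, which limits both.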

Other observations

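Receptors and genes that the receptor rule leaves out varied too. Pdgfra, a growth factor receptor of oligodendrocyte precursors, held 128 to 136 CPM in the 3 day 3 libraries of highest Egfr, against 38.8 to 81.9 CPM in the other 21. Of all genes tested, 26.1% were likewise higher in all 3 than in any of the 21. The 7 precursor markers, Pdgfra among them, did not go together. In vehicle at day 3 against day 0, 3 had a positive log2 difference and 4 a negative one. Shisa6, an AMPA receptor partner, held 27, 22.9 and 13.2 CPM in D2C7-IT tumours at day 0, against 20.2, 14.3 and 19.7 CPM in vehicle tumours. In αCD40 tumours at day 0 it held 30.4, 24.7 and 55.6 CPM and in combination tumours 39.6, 66.8 and 22.1 CPM, above each vehicle tumour. Of the 34 accessory and scaffold genes, 1 lay above vehicle in every tumour after αCD40, against 3.99% of all genes. After the combination 2 did, against 5.45%. The immediate early gene Arc held 739, 415 and 153 CPM in D2C7-IT tumours at day 3 and 247, 435 and 123 CPM in combination tumours, against 106, 106 and 20.2 CPM in vehicle tumours. Of the 7 calcium and plasticity partners, 1 lay above vehicle in every D2C7-IT tumour, against 7.43% of all genes. In combination tumours 2 did, against 8.06%. Vehicle replicates 2 and 3 there were among the 3 libraries of highest Egfr. Neither Shisa6 nor Arc was called by edgeR in these comparisons with vehicle. For Pdgfra, the 3 libraries were not tested against the other 21. Pdgfra, Shisa6 and Arc were named after their values were seen.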
